A study of Mus musculus with 20 samples.

Results

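The RNA of 81 genes whose symbols name chromatin modifying and remodelling enzymes, or close relatives of them, was followed in mouse embryonic stem (ES) cells, primary neural progenitor cells (NPC) and induced pluripotent stem (iPS) cells derived from those progenitors. The genes were taken by name from the authors' normalized expression table: histone lysine methyltransferases (Setd, Suv, Mll, Ezh), Polycomb repressive complex 2 (PRC2) subunits, lysine demethylases (Kdm1 to Kdm8), arginine methyltransferases (Prmt), acetyltransferases (Kat), deacetylases (Hdac, Sirt), DNA methyltransferases (Dnmt), TET dioxygenases, methyl-CpG-binding proteins (Mbd), bromodomain and ING readers, and SMARC and CHD remodellers. The pattern matched 108 transcript models of 81 symbols, of 11767 named models and 10334 symbols in that table. It also took in 8 genes that match by name alone, namely 3 katanin genes (microtubule severing) and 5 Mllt genes (partners of MLL in leukaemia fusions, some of them chromatin readers). No Dnmt3a, Dnmt3b, Dnmt3l, Ezh2, Suz12 or Ehmt row was among the matches.

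The 10 RNA libraries formed 5 groups of 2. The iPS cells in 2i were NPC-derived Sox2-eGFP iPS cells kept in serum-free medium with LIF and the inhibitors CHIR99021 (of GSK3) and PD0325901 (of MEK). The iPS cells were grown with fetal bovine serum and LIF. The NPC came from whole brains of P1 pups of a 129SvJae x C57BL/6 cross carrying Sox2-eGFP, were expanded as neurospheres and then plated on poly-D-lysine and laminin. The ES cells in 2i and the ES cells were the male V6.5 line, of strain 129SvJae x C57BL/6, in the same serum-free 2i medium with LIF or in pluripotent medium with LIF. ES and iPS cells were expanded on mitomycin-C-inactivated fibroblast feeders and passaged onto gelatin to remove the feeders before harvest. The labels do not give the 2 libraries of a group as separate cultures. If they were not, a p-value here reflects only how far these libraries lie apart, which may be technical. The iPS cells and V6.5 ES cells are different lines, and a line difference cannot be told apart from an effect of reprogramming.

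As background, chromatin enzymes write, erase and read marks on DNA and histones, or slide and eject nucleosomes with the energy of ATP. PRC2 methylates lysine 27 of histone H3 and keeps developmental genes silent in pluripotent cells, while the MLL and SETD1 enzymes methylate lysine 4 at promoters and enhancers. TET enzymes oxidise methylcytosine, and SWI/SNF (BAF) complexes exchange subunits when pluripotent cells become neural progenitors. The 2i medium holds pluripotent cells in a naive state in which DNA methylation is low.

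Levels are given in CPM, the count of a transcript model scaled to the size of its library, and each gene is given by its most highly counted transcript model. The authors' counts list reads that fell in a single model, with reads shared between models set aside as ambiguous, so a level is that of the reads unique to one model and not of the whole gene, and levels are compared here between libraries and not between genes. Reads assigned to a model ranged from 1150624 to 17286063 per library. The share of reads that fell in no model was 65% and 37.4% in iPS cells in 2i, 75.8% and 68.4% in iPS cells, 86.6% and 59.3% in NPC, 35.7% and 28.2% in ES cells in 2i, and 26.5% and 81.5% in ES cells. ES replicate 2 lay above both iPS libraries by this share, and ES replicate 1 below both. Marker genes set NPC apart from the pluripotent groups. Of 9 pluripotency markers, 8 had no count in NPC. The 6 neural progenitor markers counted, of 10 listed, summed to 7230 to 8650 CPM in NPC, against 33.3 to 81.4 CPM in the other groups. Most of the NPC sum was Olig1, Olig2 and Ncan. The pluripotency markers differed between iPS and ES cells. Mean Pou5f1 was 3410 CPM in iPS cells, against 1140 CPM in ES cells, and Klf4 was also higher. The other means were lower in iPS cells, among them Tdh (384 against 1300 CPM), Tcfcp2l1 (56.7 against 1320 CPM) and Esrrb (0.34 against 4.32 CPM). Markers of fibroblasts, the feeder cells, summed to 918 to 930 CPM in iPS cells in 2i, 2760 to 2960 CPM in iPS cells, 86.2 to 121 CPM in NPC, 441 to 453 CPM in ES cells in 2i and 1210 to 1400 CPM in ES cells. These sums cover 7 of the 10 markers listed. Most of the sum was Acta2 and Tagln, with means of 1620 and 707 CPM in iPS cells and 755 and 408 CPM in ES cells. Not every marker fell with 2i. Col3a1 rose from 108 to 229 CPM in iPS cells and from 17.4 to 116 CPM in ES cells. Col1a1 and Col1a2 fell in iPS cells and had higher means in 2i in ES cells. Tagln, Acta2, Fbln1 and Thy1 fell in both lines. In bulk RNA, fewer cells of a type and less RNA per cell cannot be told apart.

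Of the 81 genes, 78 passed the filter on low counts and were tested, and Kdm6a, Ing2 and Mllt10 were not. A gene is called higher or lower when its adjusted p is under 0.05 in edgeR's quasi-likelihood test over all 10 libraries, adjusted over 11031 transcript models by the Benjamini-Hochberg method, and every adjusted p below is from that test. Changes are log2 ratios with their standard error (SE). Counts within a class of enzymes rest on 1 to 10 genes and are to be read against the share of all symbols called in the same comparison.

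In most comparisons the chromatin enzyme genes were called about as often as all genes with a symbol. The largest gaps were in iPS cells in 2i against ES cells in 2i, where fewer of them were higher, and in ES cells in 2i against ES cells, where fewer were lower; neither gap was tested. In NPC against ES cells, 23 of 78 were higher and 27 lower, where 27.4% of all 9369 symbols tested were higher and 36.3% lower. In iPS cells against NPC, 23 were higher and 15 lower, beside 32.3% and 21.7% of all symbols. In iPS cells against ES cells, 25 were higher and 21 lower, beside 28.2% and 28.5%. In ES cells in 2i against ES cells, 9 were higher and 6 lower, beside 10.8% and 14.8%. In iPS cells in 2i against iPS cells, 18 were higher and 18 lower, beside 21.6% and 23.8%. In iPS cells in 2i against ES cells in 2i, 4 were higher and 12 lower, beside 15.3% and 12.2%. The difference between the 2i responses of the 2 lines was called for 26 genes, 12 with the higher and 14 with the lower response in iPS cells, beside 16.6% and 13.7% of all symbols. The median change of the 78 genes was -0.18 in NPC against ES cells, where that of all symbols was -0.21 (-0.16 for the 78 with genes without counts at their bound), and -0.01 in iPS against ES cells, where that of all symbols was -0.02.

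**Figure D1:**
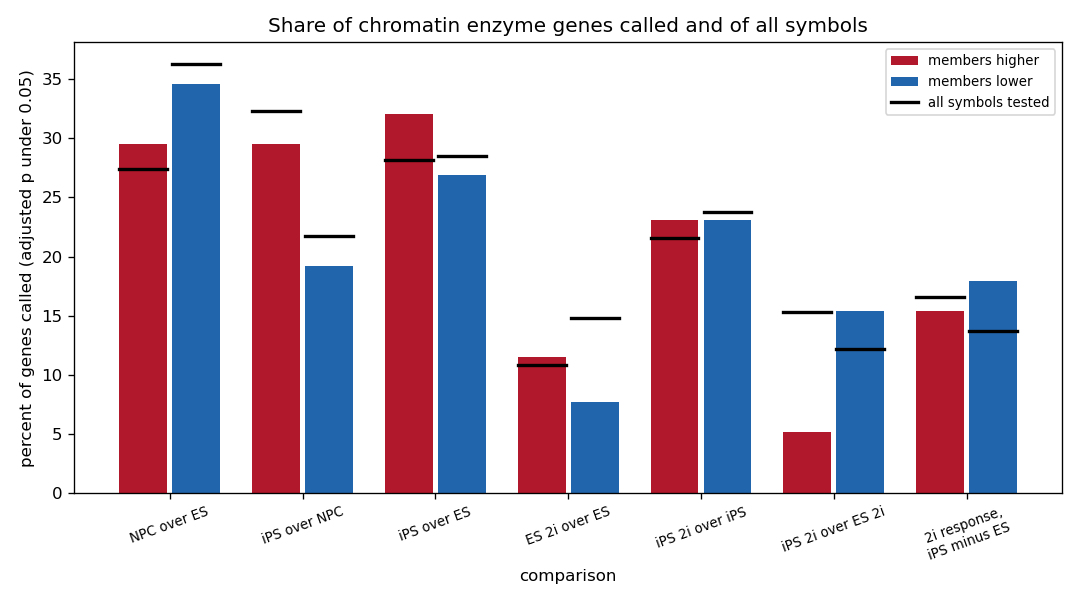
Percent of the 78 tested chromatin enzyme genes called higher (red bars) or lower (blue bars) in each comparison, with the percent of all 9369 symbols tested (black lines). In NPC over ES cells, 29.5% of the members were higher and 34.6% lower, and the bars stay near the lines in most comparisons.

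**Figure D2:**
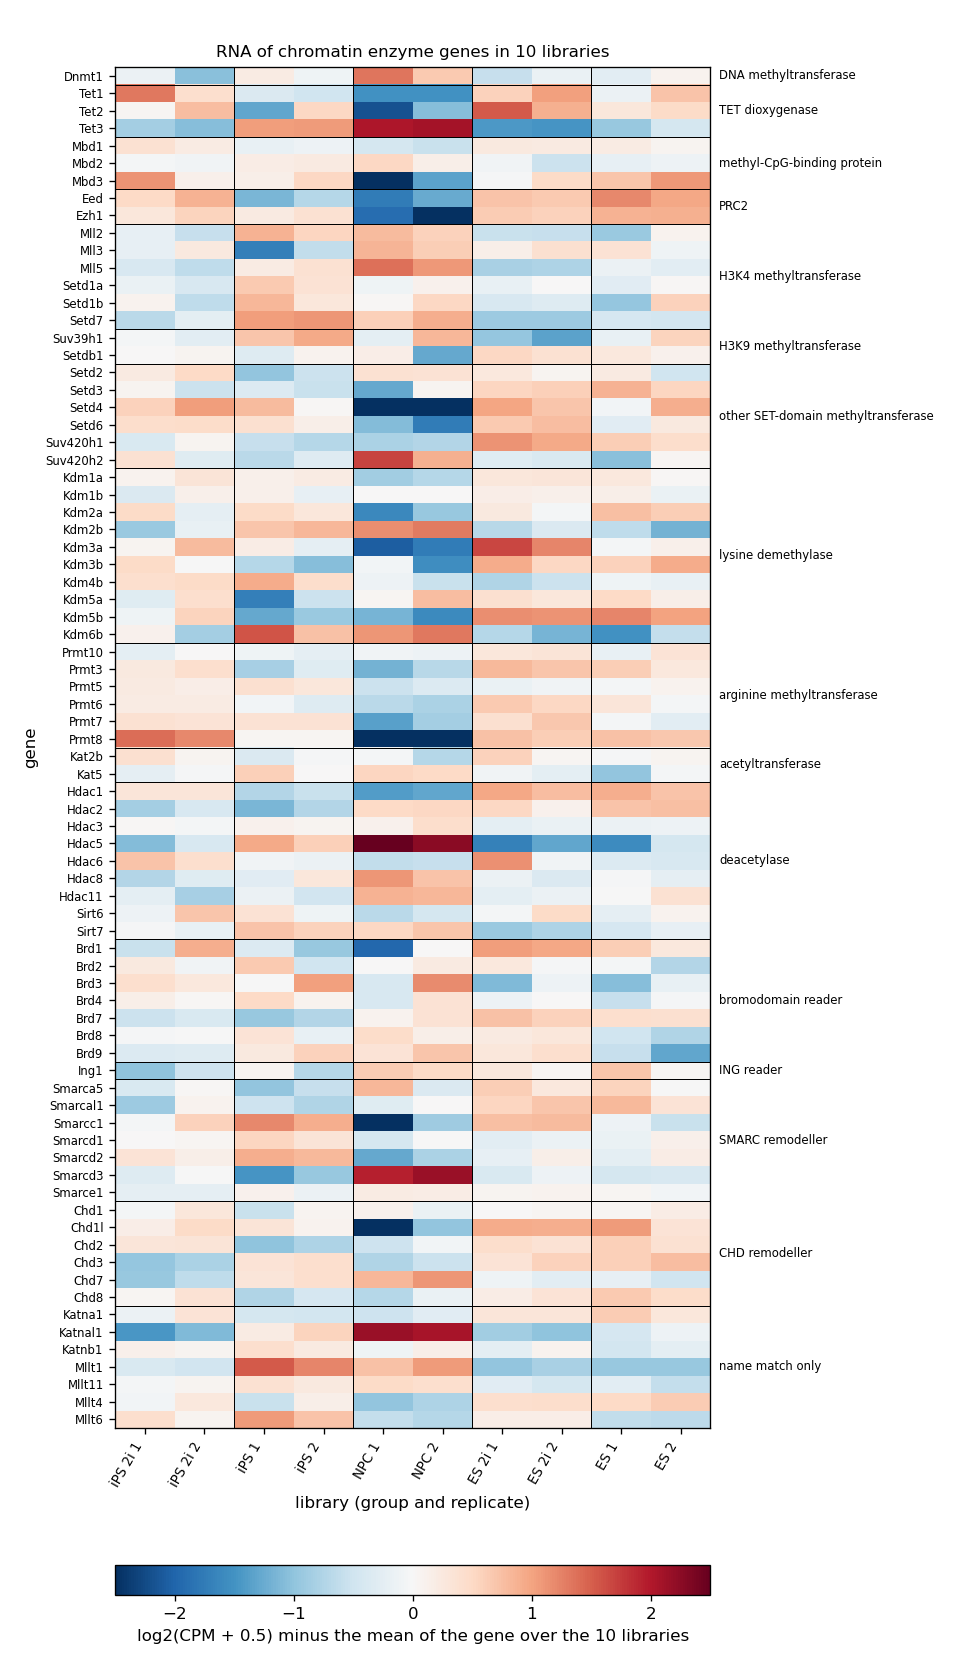
Level of each of the 78 tested genes in each of the 10 libraries as log2(CPM + 0.5) minus the mean of the gene over the libraries, with genes in rows by class and libraries in columns by group. Tet3, Hdac5, Smarcd3 and Katnal1 stand out as high in the NPC columns, and Ezh1, Setd4 and Prmt8 as low.

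In NPC, RNA of Tet3, Kdm6b, Smarcd3, Setd7, Chd7 and Hdac5 was higher than in ES cells, and RNA of Eed, Ezh1, Kdm5b, Hdac1, Prmt3 and Prmt8 was lower. Eed, Hdac1, Kdm5b and Chd2 were lower in iPS cells than in ES cells, Tet3, Setd7, Kdm6b and Mllt1 were higher, and Ezh1 and Smarcd3 lay 6.74-fold above and 9.66-fold below their NPC level. In 2i the iPS levels of Eed (0.02), Smarcd3 (0.11) and Tet3 (0.49) were not called different from those of ES cells in 2i. For Tet3 the libraries of these groups did not overlap, so its level is not taken as equal. The iPS levels of Hdac1, Hdac2, Kdm5b, Brd7 and Chd3 in 2i were lower than those of ES cells in 2i. Several comparisons share the ES, NPC or iPS libraries, so each is given for itself.

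**Figure D3:**
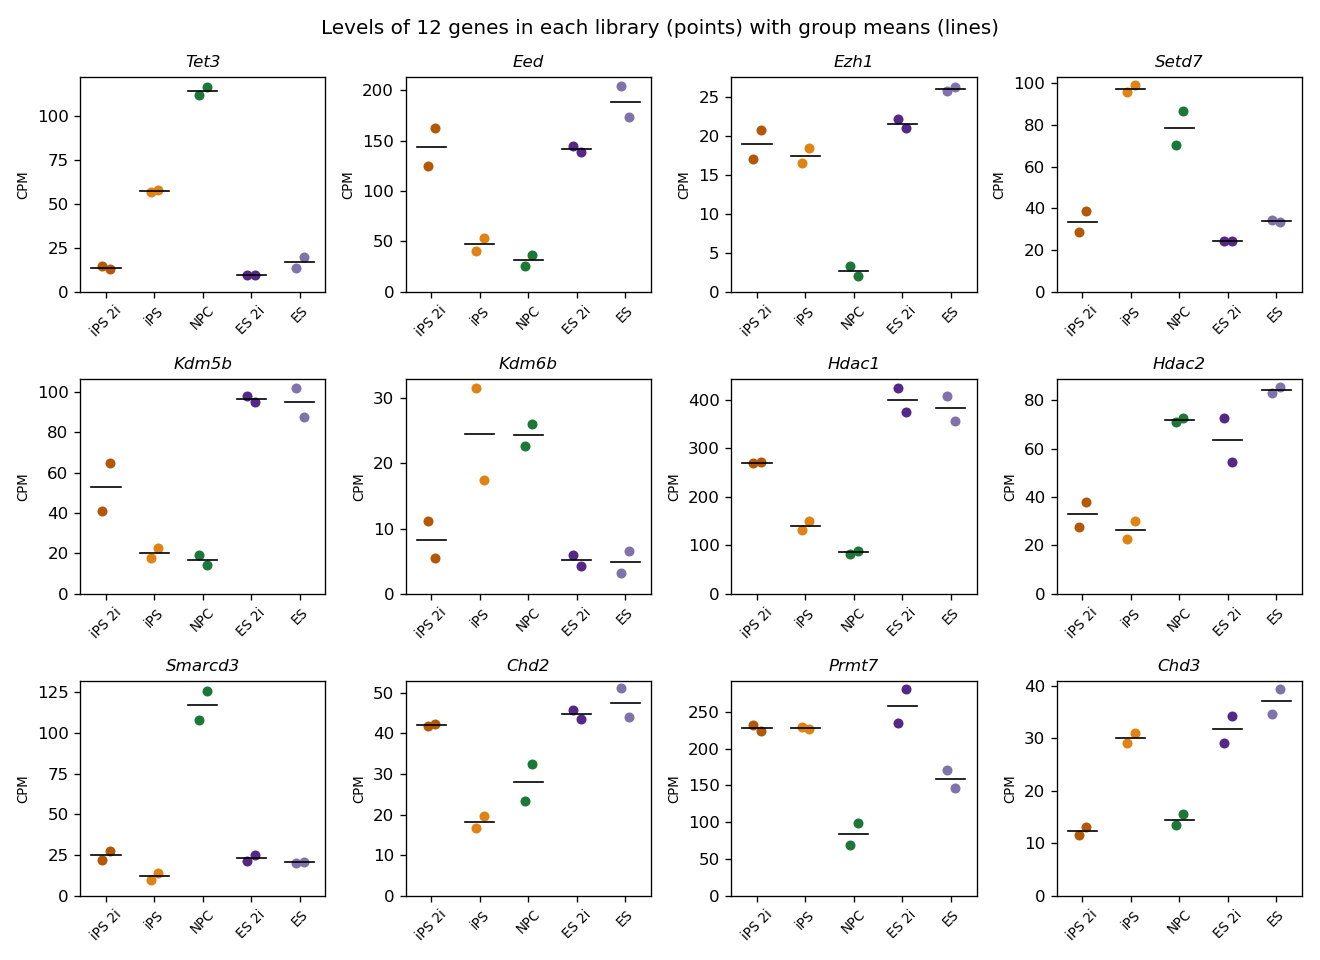
CPM of 12 genes in each library (points) with the mean of the 2 libraries of a group (lines), in the order iPS cells in 2i, iPS cells, NPC, ES cells in 2i and ES cells, with every axis starting at 0. Eed in the 2 iPS libraries lies at 40.0 and 53.8 CPM, under all 6 libraries of the other pluripotent groups.

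The TET dioxygenases, which oxidise 5-methylcytosine, split between Tet3 and its relatives. Tet3 (chromosome 6, 83312368 to 83391672, mm9) had 14.8 and 12.8 CPM in iPS cells in 2i, 57.1 and 57.9 CPM in iPS cells and 112 and 117 CPM in NPC. The values stood at 9.71 and 9.48 CPM in ES cells in 2i and 13.8 and 20.0 CPM in ES cells. NPC were the highest and the iPS cells came next, with no overlap between any of these and the other groups. The change was 2.83 ± 0.18 in NPC against ES cells (7.12-fold, adjusted p = 1.82e-14), -1.0 ± 0.17 in iPS cells against NPC (adjusted p = 8.28e-06) and 1.83 ± 0.18 in iPS against ES cells (adjusted p = 4.14e-10). In 2i it fell by 2.06 ± 0.18 in iPS cells (adjusted p = 9.23e-11) and by 0.72 ± 0.18 in ES cells (adjusted p = 0.00361). The call in ES cells was lost without both libraries with a high share of reads in no model (-0.54). Between iPS cells in 2i and ES cells in 2i the change of Tet3 was 0.49, which was not called though these libraries did not overlap.

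Tet1 and Tet2, known as the TET enzymes of pluripotent cells, were counted at a few CPM. Tet1 had no read in either NPC library, against 0.786 and 1.84 CPM in ES cells. Tet1 was called lower in NPC than in ES cells. A count of 0 in 1150624 and 3644461 assigned reads allows up to 2.51 and 0.869 CPM. The ES mean of 1.31 CPM lay under the mean of these floors, 1.69 CPM, so no fold is given. Tet1 had 3.07 and 1.42 CPM in iPS cells in 2i, against 0.619 and 0.511 CPM in iPS cells, a change of 1.53 ± 0.58 (adjusted p = 0.0325). That call was lost without iPS in 2i replicate 1 (1.07), iPS replicate 1 (1.65) or iPS replicate 2 (1.45). Tet2 had 2 reads over both NPC libraries, against 50 in ES cells, a ratio of 0.186 with a 95% counting interval of 0.0219 to 0.708, and its call was lost without NPC replicate 1 (-1.71) or NPC replicate 2 (-3.53).

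Dnmt1, the maintenance DNA methyltransferase, had 10.0 and 6.08 CPM in NPC, against 2.98 and 3.95 CPM in ES cells, and it was the only Dnmt gene among the members. Its change of 1.12 ± 0.41 (adjusted p = 0.0199) was lost as a call without NPC replicate 1 (0.82), ES replicate 1 (0.81) or ES replicate 2 (1.03). No other comparison called this model, whose change with 2i was -0.22 ± 0.34 in ES cells and -0.74 ± 0.40 in iPS cells. The second Dnmt1 model, at a mean of 2.87 CPM over the libraries against 4.12 CPM for the main one, was called higher in iPS cells in 2i than in iPS cells (1.12, adjusted p = 0.0247) and was not called in NPC against ES cells (0.31, adjusted p = 0.604), so Dnmt1 has no single direction with 2i in iPS cells. Among the methyl-CpG-binding proteins, Mbd1 had 22.6 and 20.6 CPM in NPC, against 35.3 and 32.4 CPM in ES cells (-0.68 ± 0.20, adjusted p = 0.00362), a call lost without NPC replicate 2 (-0.68). Mbd1 was also called higher in iPS cells in 2i than in iPS cells, with 40.0 and 35.6 CPM against 26.8 and 28.1 CPM (0.45 ± 0.17, adjusted p = 0.0281), and was not called there without iPS in 2i replicate 1 (0.39), iPS replicate 1 (0.42) or iPS replicate 2 (0.49). Mbd3, a subunit of the NuRD corepressor, rests on a model of 0.416 kb with 3 reads over the NPC libraries, against 117 in ES cells, a ratio of 0.119 with a counting interval of 0.0242 to 0.357.

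Both PRC2 members were lower in NPC than in ES cells, and they differed in what happened in iPS cells. Eed (chromosome 7, 97103164 to 97129486, mm9), the subunit that binds trimethylated lysine 27 and is needed for the complex to work, had 125 and 162 CPM in iPS cells in 2i, 40.0 and 53.8 CPM in iPS cells and 26.0 and 36.5 CPM in NPC. Levels were 145 and 139 CPM in ES cells in 2i and 204 and 173 CPM in ES cells. The iPS libraries lay near the NPC libraries and apart from every other pluripotent library, and the iPS libraries in 2i overlapped with those of ES cells in 2i. The changes were -2.52 ± 0.18 in NPC against ES cells (5.73-fold lower, adjusted p = 3.45e-13), -2.0 ± 0.16 in iPS against ES cells (adjusted p = 6.66e-12) and 1.61 ± 0.16 in iPS cells in 2i against iPS cells (adjusted p = 1.11e-09). iPS cells in 2i and ES cells in 2i differed by 0.02 ± 0.15 (adjusted p = 0.941).

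Eed was called higher in iPS cells than in NPC by 0.52 ± 0.19 (adjusted p = 0.0274), a call lost without NPC replicate 1 (0.39) or iPS replicate 2 (0.33). In ES cells 2i went with a change of -0.42 ± 0.15 in Eed (adjusted p = 0.0347), which was not called without ES in 2i replicate 1 (-0.42), ES in 2i replicate 2 (-0.38), ES replicate 1 (-0.28) or NPC replicate 2 (-0.39). Ezh1 (chromosome 11, 101052429 to 101087764, mm9), the catalytic subunit that can stand in for Ezh2, had 17.0 and 20.8 CPM in iPS cells in 2i, 16.5 and 18.4 CPM in iPS cells and 3.35 and 2.03 CPM in NPC. There were 22.1 and 21.0 CPM in ES cells in 2i and 25.8 and 26.3 CPM in ES cells. NPC were low and all pluripotent groups were high. The change was -3.32 ± 0.33 in NPC against ES cells (9.98-fold lower, adjusted p = 2.92e-10) and 2.75 ± 0.35 in iPS cells against NPC (adjusted p = 5.9e-08). The smaller change in iPS against ES cells (-0.57 ± 0.19, adjusted p = 0.0149) was not called without iPS replicate 1 (-0.50) or ES replicate 1 (-0.59).

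The class of lysine 4 methyltransferases was set by gene name, with 6 genes tested: Mll2, Mll3, Mll5, Setd1a, Setd1b and Setd7. Whether the product of each, Mll5 among them, methylates lysine 4 of histone H3 was not examined. In NPC against ES cells 3 were higher (Mll2, Mll5 and Setd7) and 3 were not called, beside 27.4% of all symbols higher and 36.3% lower. In iPS against ES cells 4 were higher and 1 lower, beside 28.2% and 28.5%, and 1 of the 4, Setd1b, had no change without ES replicate 1. With 2i in iPS cells 5, Mll5 among them, were lower and 1 higher, beside 23.8% lower and 21.6% higher. Setd7 (chromosome 3, 51319240 to 51364745, mm9), a monomethyltransferase of lysine 4 and of non-histone proteins, had 28.7 and 38.7 CPM in iPS cells in 2i, 95.7 and 99.2 CPM in iPS cells and 70.3 and 86.6 CPM in NPC. Values were 24.4 and 24.2 CPM in ES cells in 2i and 34.2 and 33.4 CPM in ES cells. The iPS cells were the highest group, with NPC next and no overlap between those groups and the rest. The change was 1.23 ± 0.17 in NPC against ES cells (adjusted p = 1.79e-07), 1.52 ± 0.16 in iPS against ES cells (adjusted p = 1.52e-09) and -1.51 ± 0.16 in iPS cells in 2i against iPS cells (adjusted p = 3.01e-09). The smaller change of Setd7 in ES cells in 2i (-0.48 ± 0.16, adjusted p = 0.0238) was not called without ES in 2i replicate 1 (-0.47), ES in 2i replicate 2 (-0.46) or ES replicate 1 (-0.45). The difference of iPS cells in 2i from ES cells in 2i (0.49 ± 0.16, adjusted p = 0.0213) was not called without iPS in 2i replicate 2 (0.18), ES in 2i replicate 1 (0.45), ES in 2i replicate 2 (0.47) or NPC replicate 2 (0.43).

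Promoters of 4 genes are shown in the RefSeq annotation of build GRCm38.p6, from 250 bases before to 50 bases after the start, 5′ to 3′ on the strand of the gene, with each CpG in capitals. They were chosen because Tet1 had no count in NPC, Tet3 and Setd7 were higher in NPC and iPS cells than in ES cells, and Eed was lower in both. Tet1 was called lower in NPC than in ES cells, but at this depth the size of that difference is not known. Hdac1 and Kdm6b were also picked, but no promoter was matched to them. All 4 shown lie on the minus strand.
Tet1, chr10:62887275-62887574: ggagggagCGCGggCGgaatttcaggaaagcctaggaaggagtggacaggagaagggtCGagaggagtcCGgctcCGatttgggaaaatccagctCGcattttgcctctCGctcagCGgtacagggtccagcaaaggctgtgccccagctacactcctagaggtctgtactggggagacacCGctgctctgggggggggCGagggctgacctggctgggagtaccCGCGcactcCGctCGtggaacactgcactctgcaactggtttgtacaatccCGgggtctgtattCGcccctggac
Tet3, chr6:83441629-83441928: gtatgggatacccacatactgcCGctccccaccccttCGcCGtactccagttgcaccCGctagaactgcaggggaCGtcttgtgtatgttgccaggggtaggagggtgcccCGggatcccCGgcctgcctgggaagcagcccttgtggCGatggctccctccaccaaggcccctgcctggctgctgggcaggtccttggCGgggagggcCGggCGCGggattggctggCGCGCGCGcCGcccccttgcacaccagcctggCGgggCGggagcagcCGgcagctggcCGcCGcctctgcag
Eed, chr7:89980927-89981226: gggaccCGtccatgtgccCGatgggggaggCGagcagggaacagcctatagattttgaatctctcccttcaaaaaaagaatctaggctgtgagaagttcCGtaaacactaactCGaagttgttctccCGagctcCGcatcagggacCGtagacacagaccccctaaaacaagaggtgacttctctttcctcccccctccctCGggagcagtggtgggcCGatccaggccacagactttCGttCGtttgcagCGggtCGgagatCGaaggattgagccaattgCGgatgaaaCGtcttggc
Setd7, chr3:51560774-51561073: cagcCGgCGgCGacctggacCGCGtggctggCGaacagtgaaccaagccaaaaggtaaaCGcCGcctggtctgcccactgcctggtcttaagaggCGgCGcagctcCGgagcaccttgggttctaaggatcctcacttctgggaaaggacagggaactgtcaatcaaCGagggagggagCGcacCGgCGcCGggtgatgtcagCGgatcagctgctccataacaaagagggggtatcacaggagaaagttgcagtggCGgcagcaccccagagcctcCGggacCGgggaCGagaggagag
The stretches hold 17, 22, 17 and 21 CpG, and their observed over expected CpG ratios are 0.607, 0.576, 0.758 and 0.725. Over all members, 61 of 81 genes matched the promoter table with 84 promoters, 6 of them through a newer symbol. A ratio of at least 0.6 was met by 88.1% of the member promoters, 72.7% of the 6997 promoters of symbols tested in the RNA, and 35.8% of all 32851 promoters, so these genes mostly start in CpG-rich DNA. The letters GCGCATGC, a form of the NRF1 motif, were found on either strand in 8 member promoters (9.52%), beside 5.3% and 2.71% of the other sets. Some of the 8 belong to the same gene, Dnmt1. The letters CCGGAAGT of the ETS motif were in 4 member promoters (4.76%), beside 7.85% and 3.89%. The letters AAGATGGC of the YY1 motif were in 3 (3.57%), beside 4.74% and 2.75%. None of these shares was tested. The octamer ATGCAAAT and the letters TCAAGGTCA of the ESRRB motif were in no member promoter, where 1.51% and 0.314% of the promoters of symbols tested held them.

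Among the other lysine 4 enzymes, which were named after their values were seen, Mll2 (chromosome 15, 98662100 to 98701614, mm9; by its position the gene now called Kmt2d, an enhancer methyltransferase) had 79.5 and 61.4 CPM in iPS cells in 2i, 169 and 134 CPM in iPS cells and 160 and 138 CPM in NPC. The values stood at 62.2 and 61.5 CPM in ES cells in 2i and 48.0 and 98.2 CPM in ES cells. The 2 ES libraries were far apart and both lay under every iPS and NPC library. The change was 1.07 ± 0.21 in NPC against ES cells (adjusted p = 4.44e-05), 1.11 ± 0.20 in iPS against ES cells (adjusted p = 2.02e-05) and -1.11 ± 0.20 in iPS cells in 2i against iPS cells (adjusted p = 2.69e-05). Without ES replicate 1 the change in iPS against ES cells was 0.61 (adjusted p = 0.00579). Setd1a, a catalytic subunit of COMPASS, had 88.1 and 75.7 CPM in iPS cells in 2i, 158 and 128 CPM in iPS cells, and 81.3 and 101 CPM in ES cells, a change of 0.66 ± 0.15 in iPS against ES cells (adjusted p = 0.000289) and of -0.80 ± 0.15 in iPS cells in 2i (adjusted p = 3.73e-05). Mll3, the relative now called Kmt2c, was the 1 member of the class that was lower in iPS than in ES cells, with 2.27 and 5.45 CPM against 11.2 and 7.9 CPM (-1.29 ± 0.31, adjusted p = 0.000773). Its call was lost without ES replicate 1 (-0.95), and its change was -2.04 without iPS replicate 2. Setd1b was called higher in iPS than in ES cells (0.88 ± 0.35, adjusted p = 0.037), but its groups overlapped, and without ES replicate 1 the change was 0.00. That call was also lost without NPC replicate 1 (0.88), NPC replicate 2 (0.77), iPS in 2i replicate 2 (0.79), iPS replicate 1 (0.57) or ES in 2i replicate 1 (0.80).

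Of the 6 other SET-domain methyltransferases, 1 was higher and 3 lower in NPC than in ES cells, beside 27.4% and 36.3% of all symbols. In iPS against ES cells none was higher and 3 were lower, beside 28.2% and 28.5%. Suv420h1, which methylates lysine 20 of histone H4, had 5.74 and 8.02 CPM in iPS cells in 2i, 4.95 and 4.43 CPM in iPS cells and 4.19 and 4.35 CPM in NPC. Levels were 17.2 and 15.1 CPM in ES cells in 2i and 12 and 10.5 CPM in ES cells. All iPS and NPC libraries lay under all ES libraries, in either medium. The change was -1.36 ± 0.33 in NPC against ES cells (adjusted p = 0.000701), -1.25 ± 0.26 in iPS against ES cells (adjusted p = 0.000176) and -1.16 ± 0.22 in iPS cells in 2i against ES cells in 2i (adjusted p = 0.000267). Setd2, the enzyme that trimethylates lysine 36 of histone H3, had 22.5 and 27.2 CPM in iPS cells in 2i, against 9.49 and 13.1 CPM in iPS cells (1.12 ± 0.23, adjusted p = 0.000168). It was also called lower in iPS than in ES cells, which had 22.5 and 13.4 CPM (-0.73 ± 0.23, adjusted p = 0.0085), but not without iPS replicate 1 (-0.53) or ES replicate 1 (-0.24). Setd4 had no count in NPC, against 2.19 and 4.74 CPM in ES cells, and was at least 2.05-fold lower in NPC with the floor set at 3 counts per library; that call was lost without NPC replicate 2 (-3.82, fitted against counts of 0). Neither lysine 9 methyltransferase tested, Suv39h1 nor Setdb1, was called in NPC or iPS against ES cells at their low counts. Suv39h1 was called lower in ES cells in 2i, with 0.313 and 0.13 CPM, against 0.898 and 1.84 CPM in ES cells (-1.59 ± 0.48, adjusted p = 0.0127), and not without ES in 2i replicate 2 (-1.30) or ES replicate 2 (-1.35).

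The lysine demethylases moved in both directions: of 10 tested, 2 were higher and 5 lower in NPC than in ES cells. In iPS against ES cells 3 were higher and 3 lower. The shares of all symbols were 27.4% higher and 36.3% lower in NPC, and 28.2% and 28.5% in iPS cells. Kdm5b (chromosome 1, 136456755 to 136529455, mm9), which removes methyl groups from lysine 4 of histone H3, had 40.8 and 64.9 CPM in iPS cells in 2i, 17.7 and 22.8 CPM in iPS cells and 19.3 and 14.2 CPM in NPC. There were 98.3 and 95.3 CPM in ES cells in 2i and 102 and 87.7 CPM in ES cells. The iPS and NPC libraries overlapped at the low end, the ES libraries were high in both media, and iPS cells in 2i lay between. The change was -2.58 ± 0.23 in NPC against ES cells (adjusted p = 2.28e-11), -2.21 ± 0.19 in iPS against ES cells (adjusted p = 2.38e-11), 1.39 ± 0.19 in iPS cells in 2i against iPS cells (adjusted p = 4.66e-07) and -0.85 ± 0.16 in iPS cells in 2i against ES cells in 2i (adjusted p = 0.000288). With 2i the change in ES cells was 0.02 ± 0.16.

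Kdm6b (chromosome 11, 69212020 to 69227175, mm9), the demethylase of lysine 27 that opposes PRC2, had 11.1 and 5.48 CPM in iPS cells in 2i, 31.5 and 17.4 CPM in iPS cells and 22.6 and 26.1 CPM in NPC. Values were 6.01 and 4.28 CPM in ES cells in 2i and 3.26 and 6.58 CPM in ES cells. Every iPS and NPC library lay above every ES library, and the 2 iPS libraries were far apart. The change was 2.5 ± 0.35 in NPC against ES cells (adjusted p = 3.03e-07), 2.46 ± 0.32 in iPS against ES cells (adjusted p = 1.26e-07) and -1.61 ± 0.30 in iPS cells in 2i against iPS cells (adjusted p = 6.2e-05). Without ES replicate 1 the changes against ES cells were 1.82 in NPC and 1.83 in iPS cells, and both were still called. Kdm1a (LSD1), an eraser of lysine 4 methylation, was named after its values were seen and had 369 and 387 CPM in iPS cells, 183 and 204 CPM in NPC, and 407 and 343 CPM in ES cells. It was lower in NPC than in ES cells (-0.95 ± 0.14, adjusted p = 4.59e-07), and iPS cells stood at 0.96 ± 0.14 over NPC (adjusted p = 5.89e-07) and 0.01 ± 0.13 over ES cells (adjusted p = 0.965). Kdm3a, a lysine 9 demethylase, was higher in ES cells in 2i, with 17.1 and 12.4 CPM, against 4.88 and 5.53 CPM in ES cells (1.49 ± 0.26, adjusted p = 4.51e-05).

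Of the 6 arginine methyltransferases tested, 5 were lower in NPC than in ES cells and Prmt10 was not called (-0.12), beside 36.3% of all symbols lower. In iPS cells against NPC 4 were higher and none lower, beside 32.3% higher. Both counts include Prmt6, whose second model was called in the opposite direction. Prmt7 (chromosome 8, 108734954 to 108775594, mm9), a monomethyltransferase, had 232 and 224 CPM in iPS cells in 2i, 229 and 227 CPM in iPS cells and 68.6 and 98.5 CPM in NPC. The values stood at 235 and 281 CPM in ES cells in 2i and 171 and 147 CPM in ES cells. The NPC libraries were the lowest and the ES libraries came next, with no overlap. The change was -0.88 ± 0.15 in NPC against ES cells (adjusted p = 1.03e-05), 1.40 ± 0.15 in iPS cells against NPC (adjusted p = 4.54e-09) and 0.69 ± 0.14 in ES cells in 2i against ES cells (adjusted p = 0.000252). In iPS against ES cells it was 0.51 ± 0.14 (adjusted p = 0.00241), and was not called without ES replicate 2 (0.26).

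Prmt3, which methylates a ribosomal protein, had 72.8 and 82.0 CPM in iPS cells in 2i, 34.4 and 49.5 CPM in iPS cells and 26.8 and 37.7 CPM in NPC. Levels were 108 and 100 CPM in ES cells in 2i and 94.6 and 73.5 CPM in ES cells. NPC and iPS libraries overlapped and lay under all others. The change was -1.32 ± 0.19 in NPC against ES cells (adjusted p = 5.13e-07), -1.01 ± 0.17 in iPS against ES cells (adjusted p = 6.47e-06) and 0.88 ± 0.17 in iPS cells in 2i against iPS cells (adjusted p = 7.58e-05). It was called lower in iPS cells in 2i than in ES cells in 2i (-0.42 ± 0.15, adjusted p = 0.0442), and not without iPS in 2i replicate 1 (-0.34), ES in 2i replicate 1 (-0.42) or ES in 2i replicate 2 (-0.48). Prmt8, a membrane-bound enzyme best known from brain, had no count in NPC, against 5.00 and 4.74 CPM in ES cells, and was at least 2.88-fold lower. Prmt6, which methylates arginine 2 of histone H3, was lower in NPC than in ES cells on its main model (-0.93 ± 0.20, adjusted p = 0.000132) and higher on its second model (1.33, adjusted p = 0.000332), so the gene has no single direction. It was the only one of 19 second models tested that was called in NPC against ES cells in the direction opposite to a called main model.

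Of 9 deacetylases, 5 were higher and 1 lower in NPC against ES cells, beside 27.4% and 36.3% of all symbols, and 2 were higher and 2 lower in iPS against ES cells, beside 28.2% and 28.5%. Of the 5, the calls of Hdac3 (0.43), Hdac8 (0.99) and Hdac11 (0.71) were each lost without each NPC and each ES library in turn (Hdac3 kept its call without NPC replicate 1), and without a filter on low counts. Hdac8 and Hdac11 were not called by DESeq2 either (1.07 and 0.70). Hdac1 (chromosome 4, 129193348 to 129219890, mm9), a catalytic subunit of the NuRD, Sin3 and CoREST corepressors, had 269 and 271 CPM in iPS cells in 2i, 132 and 149 CPM in iPS cells and 82.9 and 88.9 CPM in NPC. There were 425 and 374 CPM in ES cells in 2i and 408 and 357 CPM in ES cells. The groups stood in steps with no overlap from NPC through iPS cells and iPS cells in 2i to the ES cells, whose 2 media overlapped. The change was -2.14 ± 0.14 in NPC against ES cells (adjusted p = 3.93e-14), 0.70 ± 0.14 in iPS cells against NPC (adjusted p = 0.000137), -1.45 ± 0.13 in iPS against ES cells (adjusted p = 9.29e-11), 0.94 ± 0.13 in iPS cells in 2i against iPS cells (adjusted p = 5.72e-07) and -0.57 ± 0.13 in iPS cells in 2i against ES cells in 2i (adjusted p = 0.00119).

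Hdac2 (chromosome 10, 36694350 to 36721694, mm9), the partner of Hdac1 in the same complexes, had 27.7 and 37.9 CPM in iPS cells in 2i, 22.7 and 30.1 CPM in iPS cells and 71.2 and 72.7 CPM in NPC. Values were 72.7 and 54.4 CPM in ES cells in 2i and 83.1 and 85.6 CPM in ES cells. All 4 iPS libraries lay under all NPC and ES libraries. The change was -1.43 ± 0.19 in iPS cells against NPC (adjusted p = 1.9e-07), -1.66 ± 0.18 in iPS against ES cells (adjusted p = 2.72e-09) and -0.93 ± 0.17 in iPS cells in 2i against ES cells in 2i (adjusted p = 0.000101), and NPC against ES cells gave -0.22 ± 0.18 (adjusted p = 0.281). Hdac5, a class IIa deacetylase that shuttles between nucleus and cytoplasm, was named after its values were seen and had 17.6 and 13 CPM in NPC, against 0.449 and 1.58 CPM in ES cells (3.98 ± 0.46, adjusted p = 8.13e-09; 2.97 without ES replicate 1). Sirt7, a nucleolar NAD-dependent deacetylase, had 32.4 and 29 CPM in iPS cells in 2i, 54.6 and 49.5 CPM in iPS cells and 47.7 and 53.9 CPM in NPC. The values stood at 17.2 and 19.2 CPM in ES cells in 2i and 24.4 and 28.4 CPM in ES cells. NPC and iPS cells overlapped above the rest. The change was 0.98 ± 0.18 in NPC against ES cells (adjusted p = 2.17e-05), 1.00 ± 0.17 in iPS against ES cells (adjusted p = 7.01e-06) and 0.74 ± 0.16 in iPS cells in 2i against ES cells in 2i (adjusted p = 0.00108). Sirt7 fell by 0.76 ± 0.16 in iPS cells in 2i (adjusted p = 0.000311) and by 0.51 ± 0.16 in ES cells in 2i (adjusted p = 0.0218). The call in ES cells was lost without ES in 2i replicate 1 (-0.41) or ES replicate 2 (-0.43).

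**Figure D4:**
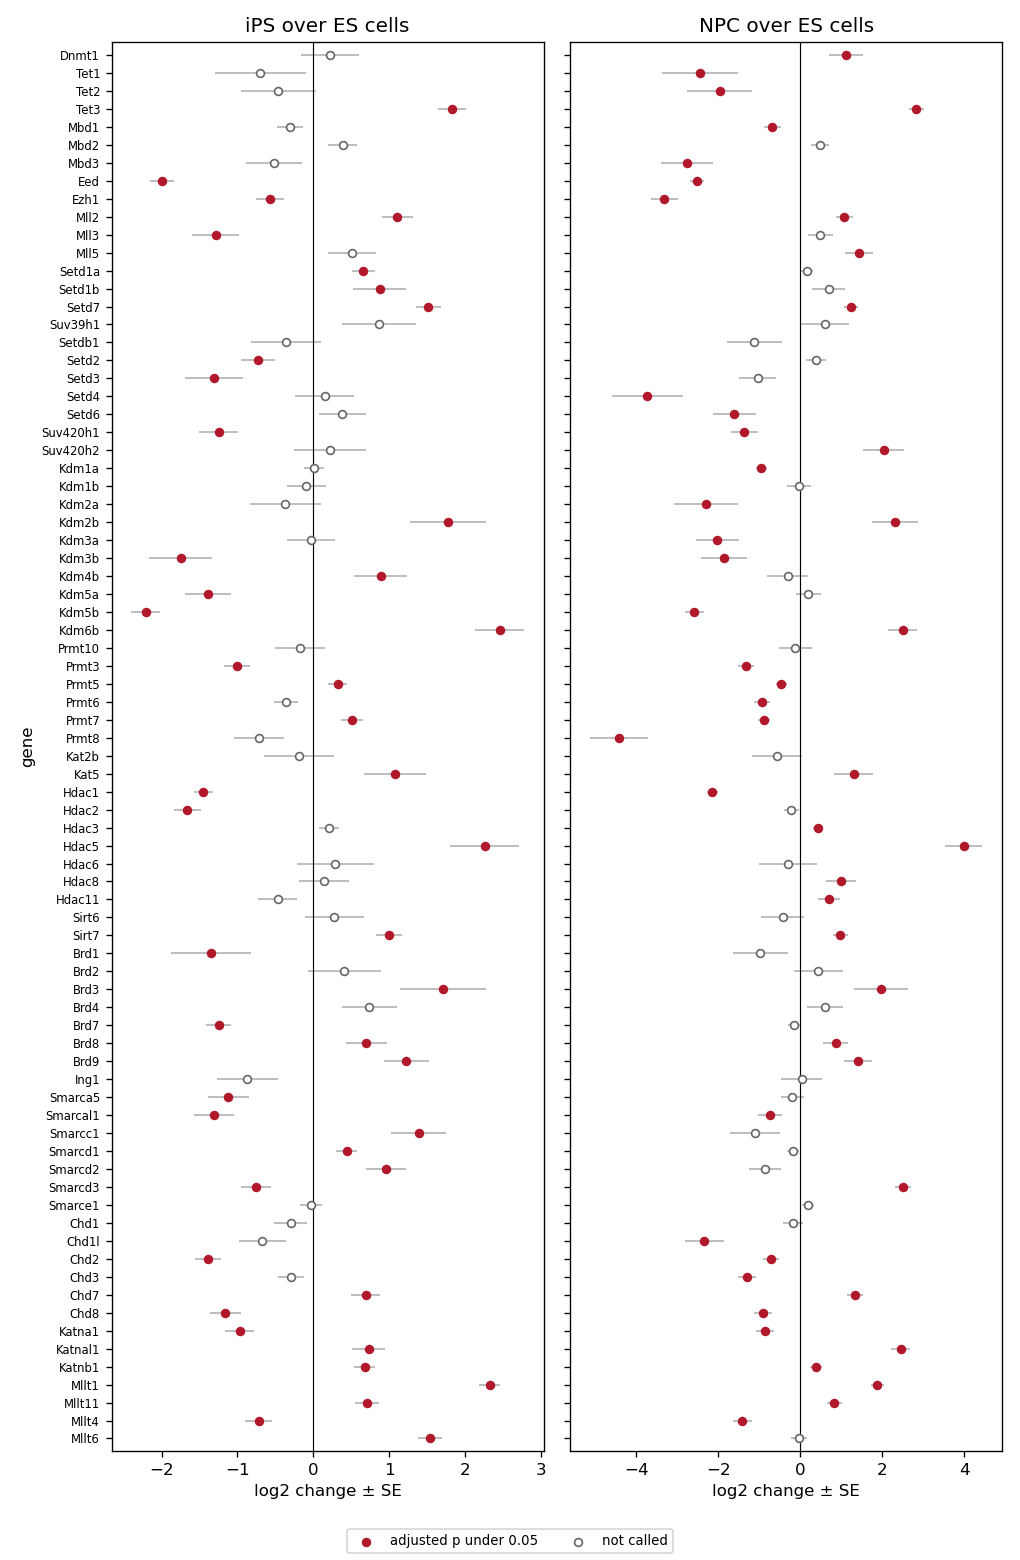
Log2 change of each of the 78 genes in iPS over ES cells (left) and NPC over ES cells (right), with bars of 1 SE and filled points where the adjusted p is under 0.05. Both panels share the ES libraries; the fitted changes of Tet1, Setd4 and Prmt8 in NPC stand against counts of 0 and are no measure of size. Eed, Kdm5b and Hdac1 lie left of 0 in both panels and Tet3, Setd7 and Kdm6b right of 0.

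Bromodomain readers, which bind acetylated lysines, were 3 higher and none lower of 7 in NPC against ES cells, beside 27.4% and 36.3% of all symbols. In iPS against ES cells 3 were higher and 2 lower, beside 28.2% and 28.5%. Brd7, a subunit of the PBAF remodeller, had 34.8 and 38.7 CPM in iPS cells in 2i, 26.0 and 30.1 CPM in iPS cells and 53.6 and 64.9 CPM in NPC. Levels were 83.5 and 75.6 CPM in ES cells in 2i and 67.8 and 66.6 CPM in ES cells. All 4 iPS libraries lay under all others. The change was -1.25 ± 0.16 in iPS against ES cells (adjusted p = 5.28e-08), -1.10 ± 0.17 in iPS cells against NPC (adjusted p = 2.54e-06) and -1.10 ± 0.15 in iPS cells in 2i against ES cells in 2i (adjusted p = 1.2e-06). The change of 0.39 ± 0.16 in iPS cells in 2i against iPS cells (adjusted p = 0.0494) was not called without either replicate of either group, without ES in 2i replicate 2 or without ES replicate 1, with values of 0.29 (without iPS replicate 1) to 0.51 (without iPS replicate 2). Brd9, its counterpart in the non-canonical BAF complex, was named after its values were seen and had 4.51 and 4.57 CPM in iPS cells in 2i, 7.01 and 9.02 CPM in iPS cells, 7.27 and 8.05 CPM in ES cells in 2i, and 3.76 and 2.11 CPM in ES cells. It was higher in iPS than in ES cells (1.23 ± 0.30, adjusted p = 0.000801) and in ES cells in 2i than in ES cells (1.16 ± 0.27, adjusted p = 0.00167). Brd8, a subunit of the Tip60 acetyltransferase complex, was called higher in NPC, iPS cells and ES cells in 2i than in ES cells at 4.74 to 11.7 CPM. The call in NPC (0.86 ± 0.31, adjusted p = 0.0164) was lost without NPC replicate 1 (0.72), NPC replicate 2 (0.98), iPS in 2i replicate 2 (0.73) or ES replicate 2 (0.56). The call in iPS cells (0.70 ± 0.27, adjusted p = 0.0278) was lost without NPC replicate 2 (0.58), iPS in 2i replicate 2 (0.61), iPS replicate 1 (0.42), ES in 2i replicate 1 (0.60), ES replicate 1 (0.87) or ES replicate 2 (0.47). Its change in NPC was 0.22, and in iPS cells 0.30, when the counts of its 2 models were summed, and neither was then called.

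The SMARC remodellers were 1 higher and 1 lower of 7 in NPC against ES cells, beside 27.4% and 36.3% of all symbols. In iPS against ES cells 3 were higher and 3 lower, beside 28.2% and 28.5%. Without ES replicate 1 the changes of Smarca5 (-0.75), Smarcd1 (0.30) and Smarcd2 (0.66) were not called. The higher Smarcc1 (1.39) had a second model of opposite sign (-1.17) that was not called. Smarcd3 (chromosome 5, 24098440 to 24107820, mm9), the BAF60C subunit known from neural and heart development, had 22.1 and 27.5 CPM in iPS cells in 2i, 9.69 and 14.1 CPM in iPS cells and 108 and 126 CPM in NPC. There were 21.2 and 25.3 CPM in ES cells in 2i and 20.3 and 20.8 CPM in ES cells. NPC stood far above every pluripotent library, and the iPS libraries were the lowest. The change was 2.51 ± 0.19 in NPC against ES cells (5.71-fold, adjusted p = 3.74e-13), -3.27 ± 0.20 in iPS cells against NPC (9.66-fold lower, adjusted p = 6.36e-15) and 1.05 ± 0.20 in iPS cells in 2i against iPS cells (adjusted p = 8.92e-05). Its change in iPS against ES cells (-0.76 ± 0.20, adjusted p = 0.00242) was not called without iPS replicate 1 (-0.53).

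Smarcal1, an annealing helicase that remodels stalled replication forks, had 6.35 and 13.2 CPM in iPS cells in 2i, 8.45 and 7.15 CPM in iPS cells and 10.0 and 12.5 CPM in NPC. Values were 18.2 and 20.3 CPM in ES cells in 2i and 22.2 and 15.8 CPM in ES cells. The iPS cells in 2i were widely spread, and all iPS libraries lay under all ES libraries. The change was -1.31 ± 0.26 in iPS against ES cells (adjusted p = 8.74e-05). In iPS cells in 2i against ES cells in 2i it was -0.88 ± 0.23 (adjusted p = 0.00576), with -0.53 and no call without iPS in 2i replicate 1 and -1.62 without iPS in 2i replicate 2. In NPC against ES cells it was -0.74 ± 0.29 (adjusted p = 0.0294), and was not called without NPC replicate 1 (-0.68), NPC replicate 2 (-1.05) or ES replicate 1 (-0.47). Smarce1, a core BAF subunit, was not called in any comparison, with 58.4 to 78.7 CPM over the 10 libraries.

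Among the CHD remodellers, 1 was higher and 4 lower of 6 in NPC against ES cells, beside 27.4% and 36.3% of all symbols. In iPS against ES cells 1 was higher and 2 lower, beside 28.2% and 28.5%. Chd7, a remodeller of enhancers needed in neural progenitors, had 10.7 and 13.4 CPM in iPS cells in 2i, 26.0 and 28.3 CPM in iPS cells and 37.7 and 45.5 CPM in NPC. The values stood at 19.3 and 17.3 CPM in ES cells in 2i and 18.0 and 14.7 CPM in ES cells. NPC were highest and iPS cells next, without overlap. The change was 1.33 ± 0.20 in NPC against ES cells (adjusted p = 1.4e-06) and -1.13 ± 0.20 in iPS cells in 2i against iPS cells (adjusted p = 2.57e-05). Chd7 was also called higher in iPS than in ES cells (0.69 ± 0.19, adjusted p = 0.00326), and not without ES replicate 2 (0.43).

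Chd2, which travels with transcribing polymerase, had 41.8 and 42.2 CPM in iPS cells in 2i, 16.7 and 19.6 CPM in iPS cells and 23.4 and 32.4 CPM in NPC. Levels were 45.8 and 43.6 CPM in ES cells in 2i and 51.1 and 44.0 CPM in ES cells. The iPS cells were the lowest group. The change was -0.71 ± 0.19 in NPC against ES cells (adjusted p = 0.00161), -1.39 ± 0.17 in iPS against ES cells (adjusted p = 6.18e-08) and 1.20 ± 0.18 in iPS cells in 2i against iPS cells (adjusted p = 1.67e-06). Chd3, an ATPase of NuRD (chromosome 11, 69156775 to 69182928, mm9), had 11.5 and 13.1 CPM in iPS cells in 2i, 29.1 and 31.0 CPM in iPS cells and 13.4 and 15.6 CPM in NPC. There were 29.1 and 34.3 CPM in ES cells in 2i and 34.7 and 39.5 CPM in ES cells. iPS cells in 2i stood at the bottom with NPC, apart from every other pluripotent library. The change was -1.29 ± 0.22 in NPC against ES cells (adjusted p = 6.83e-06), -1.26 ± 0.19 in iPS cells in 2i against iPS cells (adjusted p = 2.36e-06) and -1.34 ± 0.18 in iPS cells in 2i against ES cells in 2i (adjusted p = 1.56e-06). The iPS cells themselves differed from ES cells by -0.29 ± 0.17 (adjusted p = 0.167). Chd1, known for keeping pluripotent chromatin open, was not called in any comparison, with 11.5 to 20.8 CPM.

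Among the genes that match by name alone, 4 were higher and 2 lower of 7 in NPC against ES cells, beside 27.4% and 36.3% of all symbols. In iPS against ES cells 5 were higher and 2 lower, beside 28.2% and 28.5%. Mllt1 (ENL), a reader of acetylated and crotonylated histones in the super elongation complex, had 105 and 98.0 CPM in iPS cells in 2i, 396 and 322 CPM in iPS cells and 229 and 287 CPM in NPC. Values were 68.9 and 78.4 CPM in ES cells in 2i and 71.1 and 70.6 CPM in ES cells. The iPS and NPC libraries stood above all others without overlap. The change was 1.88 ± 0.15 in NPC against ES cells (adjusted p = 1.23e-12), 2.33 ± 0.14 in iPS against ES cells (5.04-fold, adjusted p = 1.78e-14) and -1.82 ± 0.14 in iPS cells in 2i against iPS cells (adjusted p = 4.41e-12). Mllt6 had 68.3 and 53.5 CPM in iPS cells in 2i, 107 and 83.7 CPM in iPS cells and 33.5 and 31.0 CPM in NPC. The values stood at 56.9 and 57.3 CPM in ES cells in 2i and 32.9 and 32.1 CPM in ES cells, with changes of 1.54 ± 0.16 in iPS against ES cells (adjusted p = 1.26e-09) and 0.80 ± 0.15 in ES cells in 2i (adjusted p = 0.000165). Katnal1, a katanin-like severing enzyme and no chromatin gene, had 56.1 and 52.4 CPM in NPC, against 8.93 and 11.1 CPM in ES cells (2.45 ± 0.23, adjusted p = 5.79e-11). Leaving out the 7 tested genes of this kind gave 19 higher and 25 lower of 71 in NPC against ES cells. In iPS against ES cells it gave 20 higher and 19 lower. The same shares of all symbols apply.

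The fibroblast marker sum was higher in the iPS libraries than in the ES libraries, and the share of reads in no model was higher than in ES replicate 1 and lower than in ES replicate 2. The neuron markers Tubb3 and Stmn2 summed to 526 to 553 CPM in iPS cells in 2i, 1090 to 1310 CPM in iPS cells, 35.2 to 36.5 CPM in NPC, 425 to 460 CPM in ES cells in 2i and 358 to 411 CPM in ES cells, so that they too were highest in iPS cells. The part of these measures in the iPS against ES differences, and in those of iPS cells in 2i against iPS cells, was not tested. Against ES replicate 2 alone, whose share was 81.5%, 15 genes were higher and 15 lower in iPS cells. Against ES replicate 1 alone, 19 were higher and 26 lower. Against ES replicate 2 alone the changes of the main genes were 1.5 for Tet3, -1.88 for Eed, 1.53 for Setd7, -2.10 for Kdm5b, 1.83 for Kdm6b, -1.35 for Hdac1, -1.68 for Hdac2, -1.24 for Brd7, -1.27 for Chd2 and 2.33 for Mllt1, and each was still called. In these fits the lone ES library is taken to vary like the other groups.

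Some of the smaller changes given above were called by edgeR's quasi-likelihood test and not by another method. DESeq2 did not call Dnmt1 in NPC against ES cells (1.19), Ezh1 (-0.58) or Setd2 (-0.72) in iPS against ES cells, Eed (-0.43), Setd7 (-0.50), Sirt7 (-0.53) or Suv39h1 (-2.55) in ES cells in 2i, or Tet1 (1.98), Mbd1 (0.47) or Brd7 (0.40) in iPS cells in 2i against iPS cells. It also did not call Smarcal1 (-0.75) or Brd8 (0.92) in NPC, Setd1b (0.72) or Brd8 (0.74) in iPS against ES cells, or Prmt3 (-0.40) in iPS cells in 2i against ES cells in 2i. With limma on the authors' log2 values, Kdm4b (1.28) and Setd7 (0.42) were not called in iPS cells in 2i against ES cells in 2i. Without NPC replicate 1 and ES replicate 2 together, Prmt7 in iPS against ES cells (0.35) was not called.

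With 2i, 36 of the 78 genes were called in iPS cells and 15 in ES cells, where 45.4% and 25.6% of all symbols were called. These 2 responses share no library. Of the 9 genes higher in ES cells in 2i, 1 was higher, 2 were lower and 6 were not called in iPS cells in 2i. Of the 6 genes lower in ES cells in 2i, 4 were lower, 1 was higher and 1 was not called in iPS cells in 2i. The 4 were Tet3, Setd7, Sirt7 and Katnal1, the last a match by name alone. The calls of Tet3, Setd7 and Sirt7 in ES cells were each lost in some setting given above. No share of all symbols is given for these splits, so they are not read as a result about the 78 genes. The test of the difference between the responses called 26 genes (33.3%), beside 30.2% of all symbols. In iPS cells the response of Eed was higher by 2.02 ± 0.22 (adjusted p = 2.5e-08), of Kdm5b by 1.37 ± 0.25 (adjusted p = 9.56e-05), of Chd2 by 1.30 ± 0.23 (adjusted p = 8.14e-05) and of Hdac1 by 0.88 ± 0.18 (adjusted p = 0.000401). The response was lower in iPS cells for Mllt1 by -1.88 ± 0.20 (adjusted p = 1.7e-08), for Mllt6 by -1.46 ± 0.22 (adjusted p = 5.59e-06), for Tet3 by -1.34 ± 0.26 (adjusted p = 0.000214), for Chd3 by -1.05 ± 0.25 (adjusted p = 0.00186) and for Setd7 by -1.03 ± 0.22 (adjusted p = 0.000707). By construction this difference is also the difference of the iPS over ES ratio between the media.

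**Figure D5:**
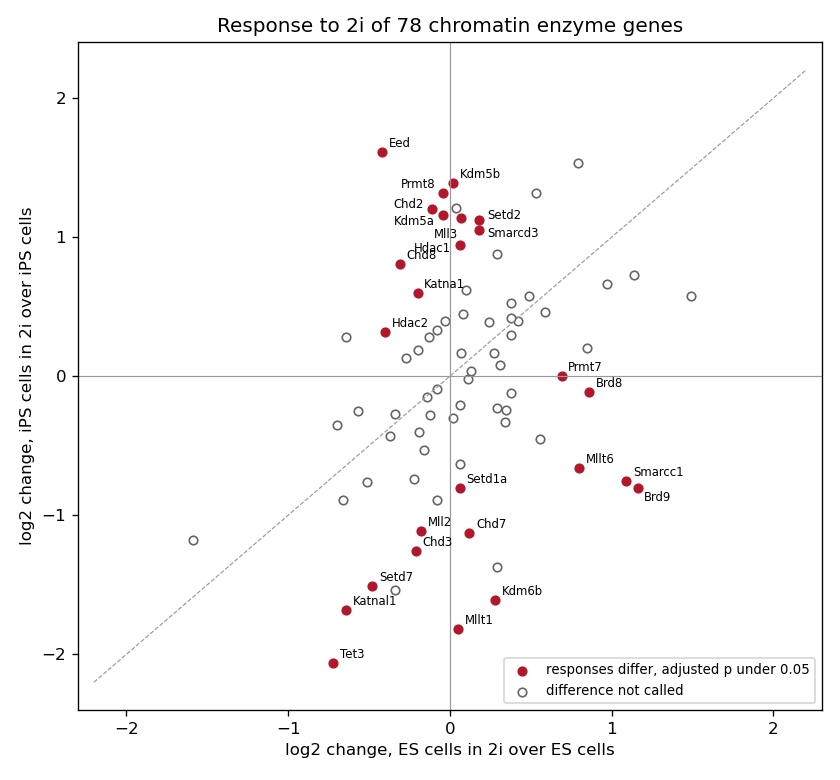
Log2 change with 2i of each of the 78 genes in ES cells (horizontal) and iPS cells (vertical), with the line of equal response dashed and the 26 genes whose responses differ filled and named. Eed lies at -0.42 in ES cells and 1.61 in iPS cells, and Mllt1 at 0.05 and -1.82.

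Between iPS cells in 2i and ES cells in 2i, 16 genes (20.5% of the 78) differed, 4 higher and 12 lower, where 27.5% of all symbols did. They were not all genes called in iPS against ES cells: Chd3 (-0.29) and Kdm3a (-0.03) were not called there, and Chd7 (0.69) and Brd9 (1.23) were higher there and lower in 2i (-0.57 and -0.72). The Chd7 call in 2i was lost without iPS in 2i replicate 1 (-0.44) or ES in 2i replicate 1 (-0.54), or with DESeq2 (-0.56). The Brd9 call in 2i was lost with DESeq2 (-0.73) and limma (-0.75), and without any 1 of 7 of the 10 libraries (-0.66 to -0.84): NPC replicate 1 and both replicates of iPS cells in 2i, iPS cells and ES cells in 2i. The lower genes included both class I deacetylases of the NuRD and Sin3 complexes given above (Hdac1 and Hdac2), Chd3, Brd7, Suv420h1 and Kdm5b. The higher ones were Sirt7, Setd7, Mllt1 and Kdm4b, a lysine 9 and lysine 36 demethylase at 3.89 and 4.06 CPM in iPS cells in 2i, against 1.44 and 1.75 CPM in ES cells in 2i (1.20 ± 0.33, adjusted p = 0.0078). The Kdm4b call was lost without iPS in 2i replicate 2 (1.12) or ES in 2i replicate 1 (1.03). The fibroblast marker sum was 918 to 930 CPM in iPS cells in 2i, against 441 to 453 CPM in ES cells in 2i, and its part was not tested.

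Partner genes of these enzymes were taken from 8 lists of complexes, with 63 of 96 genes tested. In NPC against ES cells 17 were higher and 25 lower, beside 27.4% and 36.3% of all symbols, and in iPS against ES cells 19 were higher and 21 lower, beside 28.2% and 28.5%. With 2i, 9 were higher and 4 lower in ES cells, beside 10.8% and 14.8%, and 18 were higher and 17 lower in iPS cells, beside 21.6% and 23.8%. The counts by list rest on a few genes each and are read against the same shares. The accessory subunits of PRC2 were 4 lower and none higher of 5 in NPC against ES cells, 2 lower and none higher in iPS against ES cells, and 3 higher and none lower in iPS cells in 2i against iPS cells. Rbbp7, a histone-binding subunit of PRC2 and NuRD, had 64.2 and 81.7 CPM in iPS cells in 2i, 54.2 and 50.9 CPM in iPS cells, 36 and 33.6 CPM in NPC, and 104 and 98.5 CPM in ES cells (-1.56 ± 0.18 in NPC against ES cells, adjusted p = 5.2e-09, and -0.95 ± 0.15 in iPS against ES cells, adjusted p = 3.33e-06). The list of DNA methylation partners had 5 lower and none higher of 5 in iPS against ES cells. They were Dppa3 (-3.74), Zfp57 (-2.55), Prdm14 (-2.51), Hells (-1.69) and Uhrf2 (-1.56). In iPS cells in 2i against iPS cells 4 were higher and none lower, and Dppa3 was not called. The list was not sorted by whether a gene favours or opposes DNA methylation, so these counts give no direction for it. Hells, a remodeller needed for DNA methylation, had 60.3 and 69.4 CPM in iPS cells in 2i, 21.9 and 29.6 CPM in iPS cells, and 98.7 and 66.1 CPM in ES cells (-1.69 ± 0.18 in iPS against ES cells, adjusted p = 2.28e-09, and 1.32 ± 0.18 in iPS cells in 2i against iPS cells, adjusted p = 4.57e-07). The heterochromatin genes of the HP1 and KAP1 list were 4 lower and none higher of 5 in iPS against ES cells, and the BAF partners were 6 higher and 2 lower of 11.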

How the data were processed

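RNA was measured in 10 libraries of 5 groups of 2, from total RNA with ribosomal RNA removed, in stranded paired-end libraries, per the labels' protocols. For each library the authors deposited raw counts for 55419 UCSC transcript models, laid out as HTSeq writes them, and 1 table of log2 expression values for all libraries, scaled by the authors so that the quartiles are equal between samples. The submitters' processing notes name TopHat2 2.1.0, HTSeq and build mm9. The sources used here give neither counting mode nor strand setting, so reads of overlapping and antisense genes may not be told apart. The log2 table gave the gene names and positions. The chromosome contact files were not used here.

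The deposited counts were scaled by TMM and tested with edgeR 4.0.16 (R 4.3.3) by the quasi-likelihood F test on group means over all 10 libraries, with filterByExpr by group and a prior count of 2; 44388 models were left out and 11031 tested, and 92 spike-in entries and 5 summary entries were kept out. The SE is the size of the log2 change over the square root of F. Of each symbol, the model highest in mean CPM was used. The common biological coefficient of variation was 0.117. Floors are 3 counts per library, and counting intervals are exact at 95%; since no molecular identifiers were used, both cover counting error only. The fit was tested on simulated data. Alternatives were DESeq2 1.42.0, its size factors, no filter, only the groups compared, counts summed per symbol, a replicate block, leaving out each library or the 2 libraries with the highest share of reads in no model, and limma 3.58.1 on the log2 table, the last chosen after the data were seen.

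The members and gene lists were chosen with earlier results of these data known. Named in full were all tested Dnmt, Tet and PRC2 members. In every other class, the called member with the largest change in NPC against ES, iPS against ES, or either 2i comparison was named, 27 genes in all. Only members whose mean CPM over the 10 libraries had a log2 of at least 3 were considered in those classes. Other genes were named after their values were seen.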

Additional observations from a re-analysis of the deposited data

Results flagged for a closer look

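In 26 of the 78 genes (33.3%, beside 30.2% of all symbols tested) the response to 2i differed between iPS cells and ES cells by edgeR's interaction term. It is given as the log2 response in iPS cells minus that in ES cells. It was higher in iPS cells for Eed (2.02), Kdm5b (1.37), Prmt8 (1.36), Chd2 (1.30), Kdm5a (1.20), Chd8 (1.12), Mll3 (1.07), Setd2 (0.94), Hdac1 (0.88), Smarcd3 (0.87), Katna1 (0.80) and Hdac2 (0.73). It was lower for Brd9 (-1.96), Kdm6b (-1.89), Mllt1 (-1.88), Smarcc1 (-1.84), Mllt6 (-1.46), Tet3 (-1.34), Chd7 (-1.26), Chd3 (-1.05), Katnal1 (-1.04), Setd7 (-1.03), Brd8 (-0.97), Mll2 (-0.93), Setd1a (-0.86) and Prmt7 (-0.69). Other models of Smarcc1 (0.22), Prmt7 (0.23), Setd2 (-0.06) and Kdm5b (-0.04) had the opposite sign, none of them called, at mean levels of 0.958 to 1.94 CPM. The second Brd9 model was called in the same direction (-1.45). Those of Brd8 (-0.38) and Hdac2 (0.60) and a further Kdm5b model (0.92) had the same sign and were not called.

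Of these 26 calls, 14 held without each library in turn. Kdm6b was not called without ES replicate 1 (-1.27), nor Prmt7 without ES in 2i replicate 2 (-0.56). Mll2 was not called without iPS in 2i replicate 2 (-0.73) or ES replicate 1 (-0.44), nor Smarcd3 without iPS in 2i replicate 2 (0.72) or iPS replicate 1 (0.64). Hdac2 was not called without iPS in 2i replicate 2 (0.49), iPS replicate 1 (0.55) or ES in 2i replicate 2 (0.53), and Kdm5a without iPS in 2i replicate 2 (0.75), iPS replicate 1 (0.75) or ES replicate 1 (0.97). Setd2 was lost without iPS in 2i replicate 2 (0.82), iPS replicate 1 (0.74), ES in 2i replicate 2 (0.84) or ES replicate 1 (0.45). Without iPS replicate 2 Mll3 stood at 1.82 and Kdm5a at 1.99. The calls of Brd8 (-0.69 to -1.15), Mll3 (0.64 to 1.12), Katnal1 (-0.84 to -0.92), Katna1 (0.54 to 0.80) and Prmt8 (1.28 to 1.36) were lost without 4 or more of the 10 libraries, at the values in parentheses.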

How the results depend on the processing

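Of 218 changes of named genes recomputed under up to 18 other settings, 118 kept their call under all of them and none changed sign. Counts of genes called in NPC against ES cells, iPS cells against NPC and iPS against ES cells stayed within 1.5 times under every setting that kept all libraries. In ES cells in 2i against ES cells, 4 were higher and 1 lower with DESeq2, and 5 higher and 2 lower without the 2 libraries with the highest share of reads in no model. The lower count there was 2 without a filter on low counts, 3 with only the groups compared and 2 with limma on the authors' log2 table, which was chosen after seeing the data. With DESeq2, 11 were higher in iPS cells in 2i against iPS cells, 7 lower in iPS cells in 2i against ES cells in 2i, and 7 had the higher response in iPS cells. In iPS cells in 2i against ES cells in 2i, 7 were higher with DESeq2 size factors, 2 without a filter and 2 with limma. With limma, 5 had the higher response in iPS cells. The cause of these shifts was not tested.

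Leaving out 1 library at a time gave 14 to 23 higher in NPC against ES cells (14 without NPC replicate 2), and 15 to 25 higher in iPS against ES cells (15 without ES replicate 1). In ES cells in 2i against ES cells 2 to 6 were lower (2 without ES in 2i replicate 2, 3 without ES in 2i replicate 1 or ES replicate 2). In iPS cells in 2i against iPS cells 8 to 19 were higher (8 without iPS replicate 1, 11 without iPS in 2i replicate 2) and 11 to 18 lower (11 without iPS in 2i replicate 2). In iPS cells in 2i against ES cells in 2i 1 to 5 were higher (1 without ES in 2i replicate 1, 2 without iPS in 2i replicate 2) and 6 to 16 lower (6 without iPS in 2i replicate 1, 7 without ES in 2i replicate 1). The higher response in iPS cells was called for 5 to 13 (5 without iPS replicate 1, 7 without ES replicate 1 or iPS in 2i replicate 2).

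Deviations of same-numbered libraries from their group means had correlations of -0.0801 to 0.0722 between groups. These run over all models tested, low-count ones included, so they cannot tell whether the numbers pair the samples. With a replicate block 23 genes were higher and 28 lower in NPC against ES cells, 25 higher and 21 lower in iPS against ES cells, and no count moved by over 1.5 times. With 2 libraries a group and NPC replicate 1 at 1150624 assigned reads, changes of genes at a few CPM, such as Tet1, Tet2 and Mbd3, have wide errors.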
